A study of Mus musculus with 12 samples.

Results

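The comparison is between whole cornea of wild-type mice on day 7 and on day 5 after suturing, with 1 array each. These are 2 of the 12 Affymetrix arrays in the series, chosen by their titles and not by any value. With 1 array per day there is no replicate and no test, so every value below is a difference between 2 arrays, and the day, the animals and the dissection cannot be told apart. The yardstick is the difference between replicate arrays in 4 groups of intact cornea with 2 arrays each: wild type, ApoE-/-, Dscr-1-/- and the Dscr-1-/- and ApoE-/- double null. The remaining sutured arrays, also 1 each, are labelled Dscr-1 Tg on day 7 and Dscr-1-/- on day 5. Strain is given as C57BL/6J for all 12 samples. Rcan1, known earlier as Dscr-1, restrains the calcium-activated phosphatase calcineurin, and ApoE (Apoe) is an apolipoprotein that carries lipid. The labels do not say how many eyes or mice gave the RNA of an array, and they name no transgene promoter, no number or place of sutures, no age or sex, and no hour at which eyes were taken.

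The cornea is a clear tissue of a layered epithelium, a collagen stroma kept by keratocytes, and an inner endothelium, and it normally holds no vessels. A stitch through the stroma is a standard way to make it inflame and to draw blood and lymphatic vessels inwards from its rim, the limbus. Neutrophils and macrophages enter early, keratocytes near the stitch turn into contractile, matrix-building cells, and vessel sprouts are covered by pericytes as they mature.

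Values are linear probe-set intensities, scaled by the authors to a common level on each array. Differences are given as log2(intensity + 3.6) on day 7 minus the same on day 5, with 3.6 set at the 20th percentile of the deposited intensities, and folds are of intensity + 3.6. The brightest probe set stood for a gene, and 12711 of 18194 genes were bright enough to be compared. Both arrays carried the corneal label plainly: Krt12, the keratin of corneal epithelium, read 6114.5 on day 5 and 5631.5 on day 7, and the stromal proteoglycan gene Kera read 3544.6 and 3885.2. Prox1, a defining transcription factor of lymphatic endothelium and lens, read only 6.3 and 7.8. The 3' to 5' signal ratio of Gapdh, a sign of RNA integrity, was 1.108 on day 5 and 1.009 on day 7, at the low end of the 12 arrays (1.009 to 2.909). Xist was near background on both sutured wild-type arrays (9.6 and 8.2) and the Y-linked Kdm5d was present (134.9 and 157.5). Some intact arrays go against their labels or apart from their partners, which bears on the yardstick: Apoe read 849.3 on the array labelled ApoE-/- replicate 1, the labels of Dscr-1-/- replicate 2 name both genotypes, and Xist read 4256.9 and 19.6 in the double null. That Dscr-1-/- replicate 2 also had the highest Gapdh ratio (2.909, against 1.641 in its partner) and 18S ribosomal signal (5992.9 against 2869.0), and the part of this in the pair's differences was not tested. Counts without each pair are therefore given below.

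Between day 5 and day 7, 670 of 12711 genes (5.27%) differed by 2-fold or more, 416 being higher on day 7 (3.27%) and 254 lower (2.0%). The same size of difference was reached between intact replicates by 214 genes in wild type (1.68%), 377 in ApoE-/- (2.97%), 1638 in Dscr-1-/- (12.9%) and 1139 in the double null (8.96%). The day difference was thus wider than the spread of the wild-type and ApoE-/- pairs and narrower than that of the other two. The median absolute log2 difference was 0.24 between the days, 0.16 in the wild-type pair, 0.16 in ApoE-/-, 0.40 in Dscr-1-/- and 0.30 in the double null. A stricter rule asked that a 2-fold difference also exceed that gene's difference in all 4 intact pairs, and 456 genes met it (3.59%), 288 higher (2.27%) and 168 lower (1.32%). Without the ApoE-/- pair these were 304 and 172, without the Dscr-1-/- pair 321 and 214, without the double null pair 327 and 180, without the wild-type pair 292 and 170, and against the wild-type pair alone 404 and 247. Differences of any size exceeded all 4 pairs in 2188 genes (17.2%). By sign alone, 7387 genes were higher on day 7 (58.1%) and 5289 lower (41.6%), the background for each count of members higher or lower at any size.

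**Figure D1:**
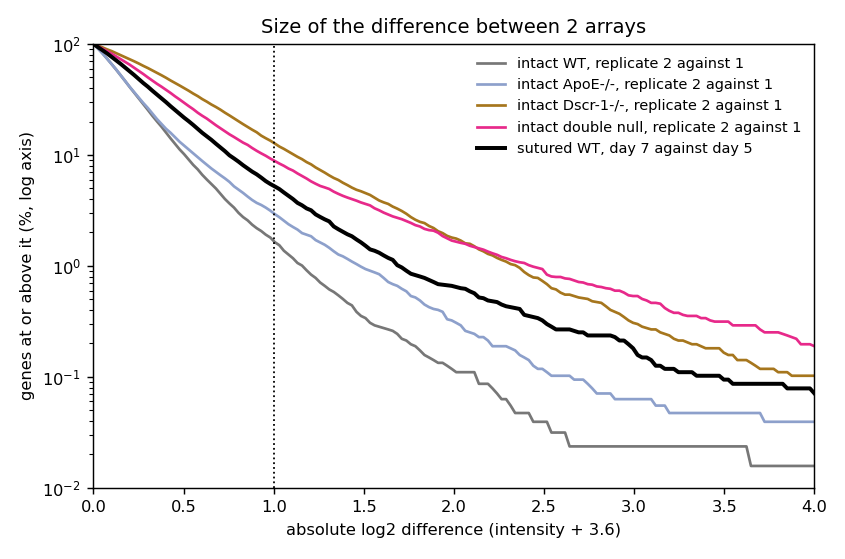
Share of 12711 genes (vertical, percent, log axis) whose absolute log2 difference between 2 arrays reached the size on the horizontal axis, for day 7 against day 5 in sutured wild type (black) and for the 4 pairs of intact replicates. The dotted line marks 2-fold, where the day comparison (5.27%) lies between the wild-type and ApoE-/- pairs below it and the Dscr-1-/- (12.9%) and double null (8.96%) pairs above it.

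How the calls divide into higher and lower depends on the scaling. With the deposited scaling 62.09% of the 670 calls were higher on day 7, and the median over all genes was 0.07. Quantile normalization gave 308 higher and 299 lower (50.74% higher), loess on intensity 318 and 303 (51.21%), and centring each array on its median 279 and 343 (44.86%), with the median over all genes moving to -0.07. The balance of higher and lower genes is therefore tied to the scaling, and the gene groups below are to be read against these medians.

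Set beside intact wild type, the 2 kinds of call began from different places. Of the 254 genes lower on day 7, 150 stood 2-fold or more above the mean of the intact wild-type arrays on day 5, and 161 lay within 2-fold of it on day 7. Of the 416 higher genes, 183 stood 2-fold or more above intact on day 7, while 131 stood 2-fold or more below it on day 5. Over all 12711 genes, 6.12% were 2-fold above intact on day 5 and 6.86% on day 7, and 3.44% and 1.76% were 2-fold below. These counts share the day 5 and day 7 arrays with the calls themselves and are given as a description.

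The 5 highest differences were crystallin genes. Crystallins are the water-soluble proteins that fill lens fibre cells and give the lens its refractive power, and some are also made in cornea. Crygb, a gamma crystallin, read 3.9 on day 5 and 795.6 on day 7, a log2 difference of 6.74. Crygd went from 1.7 to 418.1 (6.31) and Crygf from 1.0 to 158.7 (5.14). Their day 5 values lie near or below the added constant, so the sizes of these 3 differences, and of any other with a value that low, depend on it, and Crygd stood at 7.51 with a constant of 0.6 and at 5.17 with 10.2. Among beta crystallins, Cryba1 read 75.8 and 1596.8 (4.33), Crybb1 0.7 and 73.7 (4.17), Cryba2 35.6 and 391.0 (3.33), Crybb2 95.7 and 832.0 (3.07), Cryba4 29.2 and 241.5 (2.90) and Crybb3 34.4 and 195.9 (2.39). Crygs read 88.9 and 1471.1 (4.0) and the lens chaperone Cryaa 94.0 and 1130.4 (3.54). Cryab, a small heat-shock protein that corneal cells make as well, was bright on both days, at 1181.4 and 2486.6 (1.07). Mip, the water channel of the lens fibre membrane, read 4.7 and 58.4 (2.90).

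Of 22 lens genes with a probe set, 17 passed the brightness filter, 16 of them were 2-fold or more higher on day 7, none was lower, and 16 of the 17 exceeded all 4 intact pairs. The exception to both was Bfsp1, a beaded filament protein, which read 17.8 and 36.1 (0.89). The median over the list was 3.07, against 0.07 over all genes and an absolute shift of at most 1.56 between intact replicates. High crystallin signal was not special to day 7. The summed intensity of the 22 genes was 16331.2 and 11697.0 in the intact wild-type corneas, 1711.6 in wild type on day 5, 10090.5 on day 7, 2199.4 on the day 7 array labelled Dscr-1 Tg and 1534.9 on the day 5 array labelled Dscr-1-/-. It lay between 585.8 and 2265.4 in the other 6 intact corneas. The 3 arrays with high sums are thus all wild type, and day 5 is the only wild-type cornea with a low one. Whether lens tissue came away with some corneas was not tested, and neither was the part of lens RNA in the other differences described here. The summed corneal epithelium list, 19 genes, moved little, from 78610.1 to 71786.3.

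**Figure D2:**
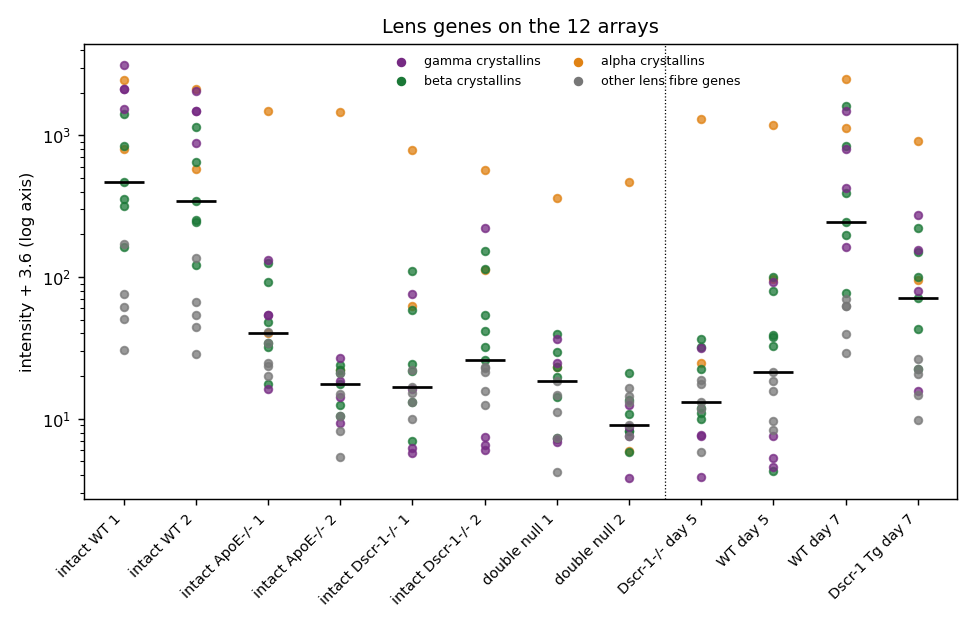
Intensity + 3.6 (vertical, log axis) of the 17 lens genes past the brightness filter on each of the 12 arrays, coloured by crystallin class. Bars mark the median over the genes on each array, and the dotted line parts the intact from the sutured corneas. The intact wild-type arrays and wild type on day 7 sit high, while wild type on day 5 sits with the remaining arrays.

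Genes of blood vessels were also higher. Sox17, a transcription factor of arterial endothelium, read 4.9 on day 5 and 37.2 on day 7 (2.26), and Aplnr, the apelin receptor of sprouting vessels, 54.6 and 274.3 (2.26). Egfl7, a protein secreted by endothelial cells, read 20.8 and 76.6 (1.72), the surface receptor Cd93 50.0 and 158.6 (1.60), the junction protein gene Pecam1 11.3 and 34.9 (1.37), and Sox18 15.1 and 43.3 (1.33). All 6 were also near background in the intact wild-type corneas, where none read above 17.6. Cdh5, which encodes the cadherin that holds endothelial cells together, read 1.9 and 7.9 in intact cornea, 23.9 on day 5 and 59.6 on day 7 (1.20). Kdr, the main receptor for VEGF-A, read 50.1 and 81.6 (0.67), which is below 2-fold.

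All 22 blood endothelial genes past the filter were higher on day 7, 12 of them by 2-fold or more, and 12 exceeded all 4 intact pairs. The list median was 1.07, and the list shifted by at most 0.35 between intact replicates. On day 5, 11 of the 22 stood 2-fold or more above intact wild type, and on day 7, 18 did. The summed intensity of the 24 measured genes was 416.9 to 541.8 in intact wild type and ApoE-/-, 854.7 on day 5 and 1783.9 on day 7, and 2211.0 to 3285.0 in intact Dscr-1-/- and double null. Of 9 pigment cell and iris genes, markers of a neighbouring tissue that holds vessels, none differed by 2-fold. Still, 8 of them were higher on day 7 and 1 lower, with a median of 0.32, and their sum was 933.2 on day 5 and 1161.8 on day 7. The part of such tissue in the endothelial difference was not tested. In bulk RNA, more cells of a type and more RNA per cell cannot be told apart. With the stricter filter at the 60th percentile only 12 of the 22 genes were left, of which 6 were 2-fold higher. With a constant of 0.6 only 7 of the 22 exceeded all 4 intact pairs. Quantile normalization and loess left 10 of the 22 genes 2-fold higher, and median centring 9. Averaging a gene's probe sets left 9 of 21, with 20 higher at any size and 1 lower.

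Mural cells, the pericytes and smooth muscle cells that wrap vessels, gave a similar median of 1.35, with 5 of 9 genes 2-fold higher, none lower, and 5 past all 4 intact pairs. Mcam read 7.5 and 58.6 (2.49), Rgs5, a pericyte regulator of G-protein signals, 188.4 and 824.8 (2.11), the proteoglycan gene Cspg4 2.4 and 21.2 (2.05), Abcc9, a potassium channel subunit, 20.7 and 62.9 (1.45), and Des, the muscle filament desmin, 7.6 and 25.0 (1.35). Others of the list did not follow. Myh11, the myosin of mature smooth muscle, read 19.0 and 15.4 (-0.25), and Notch3 357.2 and 326.9 (-0.13). At the stricter filter 3 mural genes remained and 1 was 2-fold higher, and averaging a gene's probe sets left 3 of 7, with a median of 0.74.

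Fewer lymphatic genes were measured. All 6 past the filter were higher, or 5 of 6 after median centring, and 2 were so by 2-fold or more: Thy1, which fibroblasts also carry, at 15.3 and 67.5 (1.91), and Mmrn1, a secreted glycoprotein, at 23.4 and 59.9 (1.23). Lyve1, the hyaluronan receptor of lymphatic endothelium and some macrophages, read 2.1 and 4.8 in intact cornea, 63.9 on day 5 and 118.6 on day 7 (0.86), a difference smaller than the 1.61 seen between a pair of intact replicates. Flt4, the receptor for VEGF-C, read 23.7 and 45.3 (0.84).

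Growth factors of vessels were mixed. Vegfa, the main signal for blood vessel sprouting, was lower on day 7, at 144.4 and 86.1 (-0.72), within the spread of its intact pairs (0.98). Vegfc, the signal for lymphatic growth, read 38.8 and 87.0 (1.09), and Vegfd 16.2 and 38.3 (1.08), both past all 4 intact pairs. Angptl4, a secreted lipase inhibitor that acts on vessels, read 60.3 and 157.1 (1.33), and Pdgfb, which recruits pericytes, 13.5 and 31.8 (1.05), neither past its intact pairs. Angpt1, the vessel-stabilising ligand of the receptor Tek, read 23.1 and 13.2 (-0.67). Among inhibitors, Col18a1, whose collagen chain is cut to give endostatin, read 44.0 and 102.5 (1.16), and Thbs2 661.9 and 1391.5 (1.07). In all, 6 of 21 genes of the VEGF and angiopoietin list were 2-fold higher and none lower, but these calls lay close to the line: 2 to 3 were left after quantile normalization, loess, median centring, the larger constant or averaging a gene's probe sets, and median centring added 1 lower gene.

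Stroma and matrix genes were also higher. Acta2, the smooth muscle actin that marks myofibroblasts and mural cells, read 296.0 and 932.4 (1.64), and Tagln, its partner in contractile fibres, 43.6 and 146.5 (1.67). Postn, a matrix protein of healing tissue, read 253.1 and 876.3 (1.78), tenascin-C (Tnc) 268.7 and 867.7 (1.68), and fibronectin (Fn1) 1076.2 and 2380.7 (1.14). Acta2 and Tnc did not exceed all intact pairs, whose largest differences were 1.84 and 2.53, whereas Tagln, Postn and Fn1 did. All 10 myofibroblast genes were higher, 6 by 2-fold or more, with a median of 1.36 and at most 0.47 between intact replicates.

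The listed collagens that form stromal fibrils, or like Col14a1 bind to them, were all higher on day 7, 5 of 8 by 2-fold or more. Col3a1, the chain abundant in healing tissue, read 300.3 and 155.9 in intact cornea, 606.1 on day 5 and 3177.8 on day 7 (2.38), although it also differed by 2.75 within an intact pair. Col11a1 read 61.8 and 229.1 (1.83), Col5a1 453.4 and 1364.5 (1.58), Col14a1 80.3 and 231.8 (1.49) and Col1a1 481.9 and 1247.2 (1.37). Col1a2, the partner chain of Col1a1 in type I collagen, was bright and nearly level, at 4908.7 and 5425.1 (0.14). Both Col5a1 and Col1a1 were lower on day 5 than in intact wild type, where they read 1169.1 and 736.9, and 912.4 and 698.4, and on day 7 they lay above these values. The basement membrane collagens Col4a1 (323.6 and 902.1) and Col4a2 (134.1 and 338.7) differed by 1.47 and 1.31. Over the whole list of 30 collagens and their processing enzymes, 11 were 2-fold higher, none was lower, and 15 exceeded all 4 intact pairs.

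In a list of wound matrix proteins, 9 of 16 were 2-fold higher and 1 was lower. Fbln2 read 67.4 and 224.7 (1.69), Aspn 43.6 and 166.9 (1.85), the proteoglycan gene Vcan 42.4 and 141.3 (1.66) and Cthrc1 147.2 and 411.3 (1.46). The lower member was Ccn1, an early response gene that encodes a matrix signal, at 2130.7 and 810.0 (-1.39). Pxdn, a peroxidase that cross-links collagen IV, was among the 12 highest differences of the 9867 genes reaching the 60th percentile of brightness, at 45.1 and 320.4 (2.73). Keratocyte genes showed no 2-fold difference in any of 12, where 5.27% of all genes had one. Yet 10 of them were higher on day 7 and 2 lower. Their median was 0.36, against at most 0.50 between intact replicates, and 2 were 2-fold higher when a gene's probe sets were averaged.

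**Figure D3:**
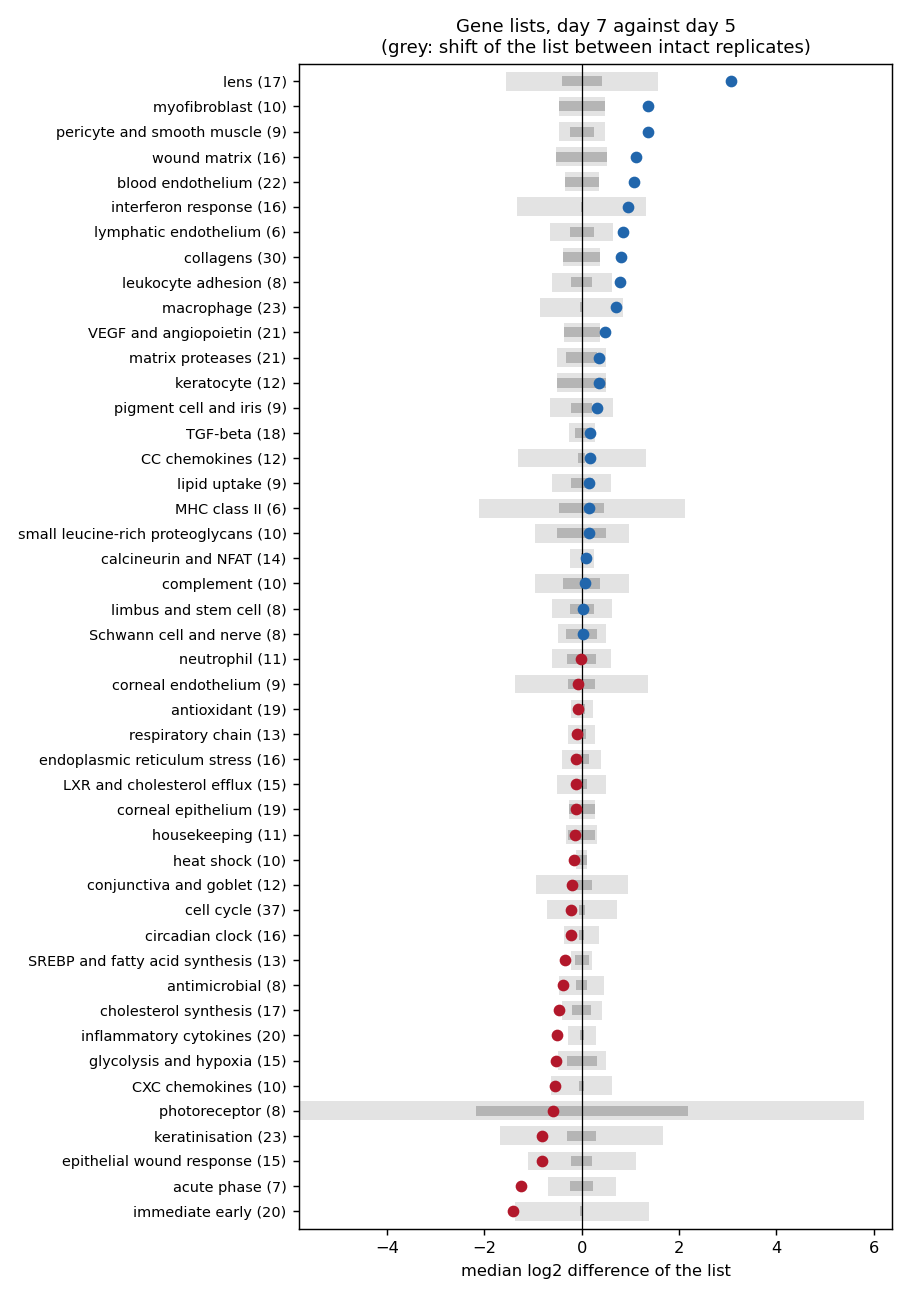
Median log2 difference (horizontal), day 7 minus day 5, of each gene list, with the number of its genes past the filter in brackets. Dark grey bars give the size of the list's median shift between the intact wild-type replicates, drawn to both sides of 0, and light grey bars the largest such shift over the 4 intact pairs. The medians of lens, pericyte and smooth muscle, myofibroblast, wound matrix, collagens and blood endothelium lie beyond both grey bars. Other lists do so as well, among them the lower acute phase, inflammatory cytokine and, barely, immediate early lists. The keratinisation, interferon and macrophage medians lie inside the light bar.

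Leukocyte genes did not move as a block. Mmp9, a gelatinase stored in neutrophil granules and also made by wounded epithelium, was among the 12 highest of the 9867 brighter genes, at 35.2 on day 5 and 281.1 on day 7 (2.88), against 9.4 and 7.6 in intact wild type. Conversely S100a9 read 6191.6 and 719.5 (-3.10), its partner S100a8 4596.4 and 1085.1 (-2.08), and Lcn2, an iron-binding defence protein, 1116.7 and 202.9 (-2.44). These 3 are abundant in neutrophils and in stressed keratinocytes. Among genes tied more closely to neutrophils, the granulocyte growth factor receptor gene Csf3r read 62.9 and 78.5 (0.30), and the chemokine receptor gene Cxcr2 13.6 and 11.3 (-0.21). These receptors do not stand for the whole list. Of 11 neutrophil-list genes past the filter, 2 were 2-fold higher, Mmp9 among them, and 3 lower, S100a9, S100a8 and Lcn2. The list median was -0.02 (0.05 with a constant of 0.6).

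Macrophage genes were mostly higher, by less. Itgam, an integrin of myeloid cells, read 66.4 and 202.4 (1.56), the fractalkine receptor gene Cx3cr1 14.8 and 40.8 (1.27), Adgre1, which encodes the F4/80 antigen, 54.4 and 133.8 (1.24), and the mannose receptor gene Mrc1 138.1 and 297.4 (1.09). All 4 exceeded the intact pairs. Lysozyme (Lyz2) was level at 1310.6 and 1317.2, as was Cd68 at 157.6 and 180.5 (0.19), both well above the intact wild-type values. Of 23 genes, 19 were higher, 5 by 2-fold or more (3 after median centring), and none was 2-fold lower. The median of 0.70 was smaller than the 0.85 by which the same list shifted between the Dscr-1-/- replicates.

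Interferon-stimulated genes, which defend against viruses and are switched on through interferon receptors, were higher in 15 of 16 cases, or 14 after median centring, and 2-fold higher in 7. Rsad2, the antiviral enzyme viperin, read 18.6 and 122.0 (2.50), against 19.0 and 20.6 in intact wild type. Ifit1 read 78.3 and 290.1 (1.84), Oas2 21.9 and 77.5 (1.67), Ifit3 178.7 and 563.4 (1.64), the nucleic acid sensor Zbp1 26.8 and 90.0 (1.62), the GTPase gene Gbp3 39.4 and 113.9 (1.45), and Irf7, a transcription factor that amplifies the response, 37.5 and 103.8 (1.39). Each of the 7 exceeded all 4 intact pairs. On day 5 these genes were near the intact wild-type level, with a list median 0.18 above it, and on day 7 it was 1.28 above. The list as a whole is variable in intact cornea: its median shifted by 1.32 between the Dscr-1-/- replicates, more than the 0.94 between the days, and by 0.02 between the wild-type replicates.

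Interferon signals reach such genes through a DNA element that pairs of GAAA make, bound by a complex of STAT and IRF proteins. The letters GAAA, then any 2 bases, then GAAA again were searched on both strands in the 250 bases before each gene's start in the RefSeq promoter table (GRCm38.p6), and 2.98% of 32851 windows held them. Of the interferon list, 11 of 16 genes had a window. The letters were found in 4 of the 5 with a 2-fold difference and in 3 of the other 6. A gene counted if any of its windows matched, whereas the share over all is per window. The windows of 3 of the 2-fold members that hold a match are shown, 5' to 3' on the gene's strand, with the matches in capitals. The window of Irf7, also 2-fold higher, held no match and is not shown. Rsad2 lies at chr12:26456453-26456702 on the minus strand, Ifit1 at chr19:34640639-34640888 on the plus strand and Ifit3 at chr19:34583279-34583528 on the plus strand.
Rsad2: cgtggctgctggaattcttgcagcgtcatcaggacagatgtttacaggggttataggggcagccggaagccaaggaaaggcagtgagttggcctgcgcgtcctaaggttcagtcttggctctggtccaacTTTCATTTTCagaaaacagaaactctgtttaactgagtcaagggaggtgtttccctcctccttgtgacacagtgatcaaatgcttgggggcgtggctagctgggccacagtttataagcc
Ifit1: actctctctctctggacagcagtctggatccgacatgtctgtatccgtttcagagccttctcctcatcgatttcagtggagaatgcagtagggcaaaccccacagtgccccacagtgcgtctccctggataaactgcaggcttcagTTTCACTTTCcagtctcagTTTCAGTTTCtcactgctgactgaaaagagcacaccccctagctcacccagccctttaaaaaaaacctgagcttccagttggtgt
Ifit3: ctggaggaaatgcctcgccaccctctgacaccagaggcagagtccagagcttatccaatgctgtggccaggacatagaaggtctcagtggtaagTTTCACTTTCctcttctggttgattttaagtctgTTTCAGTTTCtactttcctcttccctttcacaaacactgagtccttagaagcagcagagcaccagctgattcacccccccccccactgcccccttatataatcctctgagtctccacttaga
Rsad2 holds 1 match, 120 bases before the start, and Ifit1 and Ifit3 hold 2 each.

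Lower genes included the immediate early genes, transcription factors and signal regulators that are switched on within minutes of a stimulus and decay quickly. Nr4a1, a nuclear receptor, read 0.7 and 5.0 in intact wild type, 589.3 on day 5 and 90.2 on day 7 (-2.66). Atf3, a stress-induced factor, read 512.0 and 73.9 (-2.73), Nr4a2 973.4 and 182.9 (-2.39), Fosb 217.7 and 47.7 (-2.11), and Fosl1, an AP-1 subunit of wounded epithelium, 146.2 and 13.3 (-3.15). Nr4a1 and Fosl1 differed by still more, 3.49 and 3.79, within an intact pair. Jun read 2608.2 and 846.1 (-1.62), Junb 655.6 and 195.1 (-1.73), Egr1 4604.1 and 1644.8 (-1.48) and Myc 637.8 and 211.7 (-1.57). Fos was an exception, at 2842.5 and 2121.2 (-0.42). Csrnp1, which encodes a nuclear protein, and Ifrd1, a transcriptional co-regulator, were among the 10 lowest of those of the 9867 brighter genes that exceeded all 4 intact pairs and lay lower on both sutured day 7 arrays, at 573.4 and 128.7 (-2.13) and at 1502.3 and 325.1 (-2.20).

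All 20 immediate early genes were lower on day 7, 16 of them by 2-fold or more, and 13 exceeded the 4 intact pairs. On day 5, 19 of the 20 stood 2-fold or more above intact wild type, and on day 7, 8 did. The list median was -1.41. The same list shifted by 1.38 between the Dscr-1-/- replicates, the pair with the RNA quality gap given above, by 0.47 in the double null, and by 0.03 in wild type. The counts stayed between 13 and 16 under the scalings and constants tried, and at 14 of 17 with the stricter filter.

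Many immediate early genes carry a cAMP response element, the site of CREB and ATF factors, whose core is TGACG. On both strands, these letters stand in 17.8% of the 32851 RefSeq windows of 250 bases. Of the list, 15 of 20 genes had a window, with a match in 7 of the 11 that differed by 2-fold and in 3 of the other 4. Again a gene counted if any of its windows matched, and Egr2, among those other 4, had 5 windows. Shown are 3 of the 2-fold lower genes that hold a match, in the same form, with matches on either strand in capitals. Nr4a1 lies at chr15:101266596-101266845 on the plus strand, Nr4a2 at chr2:57124004-57124253 on the minus strand and Atf3 at chr1:191183334-191183583 on the minus strand.
Nr4a1: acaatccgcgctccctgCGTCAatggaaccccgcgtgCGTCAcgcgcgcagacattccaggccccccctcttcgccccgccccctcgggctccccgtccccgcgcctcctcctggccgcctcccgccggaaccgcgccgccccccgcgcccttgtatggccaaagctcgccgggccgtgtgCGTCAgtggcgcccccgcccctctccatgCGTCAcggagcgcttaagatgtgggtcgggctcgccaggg
Nr4a2: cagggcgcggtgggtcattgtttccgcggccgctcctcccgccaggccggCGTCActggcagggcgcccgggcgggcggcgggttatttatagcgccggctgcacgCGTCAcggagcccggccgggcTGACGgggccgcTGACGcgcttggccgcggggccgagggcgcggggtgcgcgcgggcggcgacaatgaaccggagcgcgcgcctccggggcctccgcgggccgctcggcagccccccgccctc
Atf3: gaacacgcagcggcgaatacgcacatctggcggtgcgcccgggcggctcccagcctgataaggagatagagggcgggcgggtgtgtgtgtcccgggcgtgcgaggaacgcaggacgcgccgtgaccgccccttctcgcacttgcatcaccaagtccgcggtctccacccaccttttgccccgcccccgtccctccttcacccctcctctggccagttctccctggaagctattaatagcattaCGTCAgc
Nr4a1 and Nr4a2 hold 4 matches each and Atf3 holds 1, 7 bases before the start.

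**Figure D4:**
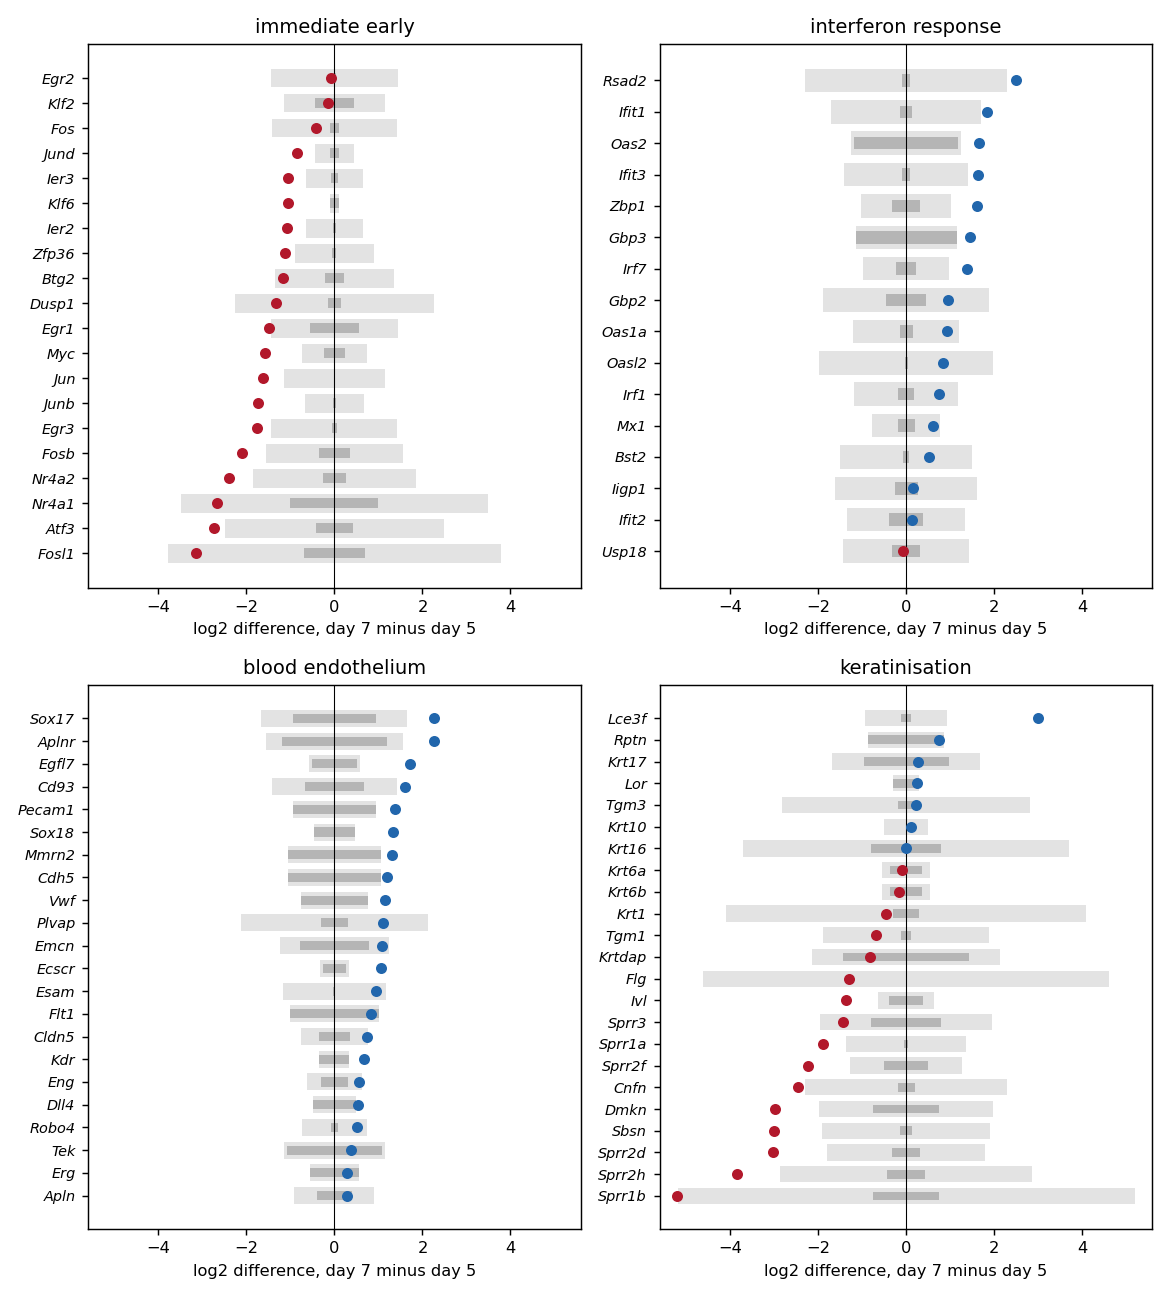
Log2 difference (horizontal), day 7 minus day 5, of each member of 4 lists. Dark grey bars give the absolute difference between the intact wild-type replicates, drawn to both sides of 0, and light grey bars the largest over the 4 intact pairs. Every immediate early gene is on the lower side and every blood endothelial gene on the higher side, while keratinisation holds members on both.

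Genes of the cornified envelope, the tough layer that skin forms and normal cornea does not, made up 6 of the 12 lowest differences among the 9867 brighter genes. Sprr1b, a cross-linked envelope protein, read 2.8 and 0.2 in intact wild type, 154.5 on day 5 and 0.7 on day 7. Its log2 difference of -5.20 has a day 7 value below the added constant, and became -6.90 with a constant of 0.6 and -3.92 with 10.2. Sprr2h read 248.0 and 13.9 (-3.85), Sprr2d 511.5 and 60.2 (-3.01), Sprr2f 473.4 and 97.9 (-2.23), Sbsn 418.9 and 49.3 (-3.0), Dmkn 560.4 and 67.5 (-2.99), and Cnfn 278.1 and 47.6 (-2.46). Involucrin (Ivl), a scaffold of the envelope, read 153.7 and 57.6 (-1.36). The exception at the other end was Lce3f, a late envelope gene, at 115.5 and 106.5 in intact wild type, 7.6 on day 5 and 86.0 on day 7 (3.0). Keratins of the wound response did not follow: Krt16 read 2230.0 and 2239.7, and Krt6a 5580.1 and 5203.3. Of 23 genes, 11 were 2-fold lower, 1 was higher, and 10 exceeded all 4 intact pairs. Sprr1b did so barely, since it differed by 5.19 between the Dscr-1-/- replicates. The list median of -0.81, or -1.41 with a constant of 0.6, was smaller in size than the 1.68 of that pair.

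Proteases and alarm signals of wounded epithelium were also lower, 6 of 15 by 2-fold or more and none higher. Klk13, a kallikrein protease, read 186.7 and 19.7 (-3.03), Serpinb3a, a protease inhibitor, 324.8 and 70.3 (-2.15), Hbegf, a growth factor for epithelial migration, 1208.7 and 513.4 (-1.23), and Ereg, of the same family, 444.2 and 193.0 (-1.19). Several families named here, such as Sprr2, Serpinb3, Klra, Saa and the gamma crystallins, hold near-identical genes, and their probe sets may read relatives too. Klra8, a receptor of natural killer cells, was among those 12 lowest at 158.5 and 23.8 (-2.57), but it differed by 2.94 within an intact pair. Mab21l3, of unclear role, read 131.6 and 20.6 (-2.48).

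Inflammatory signals were lower in part. The serum amyloid genes, acute phase proteins induced by cytokines, stood out, with Saa1 at 956.7 and 30.7 (-4.81) and Saa2 at 415.5 and 10.7 (-4.87), whereas Saa3, a form made outside the liver, read 6354.0 and 2687.5 (-1.24) and differed by 5.54 within an intact pair. Csf3, the granulocyte growth factor, read 69.4 and 5.7 (-2.97), Il6 254.2 and 36.8 (-2.67), the prostaglandin enzyme gene Ptgs2 1419.2 and 283.9 (-2.31), Casp1, the protease that activates interleukin-1, 67.2 and 13.1 (-2.08), and the cytokine feedback gene Socs3 1409.3 and 635.3 (-1.15). Il6 and Ptgs2 differed by more within an intact pair (3.05 and 3.87). Il1b, at 451.8 and 263.1 (-0.77), and Tnf, at 15.1 and 16.1 (0.08), were below 2-fold. Csf1, the macrophage growth factor, was the only member 2-fold higher, at 30.7 and 88.6 (1.43). Over 20 cytokine genes, 7 were 2-fold lower, or 4 of 13 at the stricter filter. Of 7 acute phase genes, 4 were 2-fold lower and 1 was higher, the pentraxin gene Ptx3 at 15.4 and 38.3 (1.14).

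Sugar metabolism and oxygen-responsive genes were lower too, 5 of 15 by 2-fold or more and none higher. Hk2, the hexokinase that starts glycolysis, read 925.7 and 187.8 (-2.28), the glucose transporter gene Slc2a1 2597.4 and 983.3 (-1.40), Bnip3, of mitochondrial turnover, 707.3 and 248.3 (-1.50), and Ndrg1 1635.5 and 724.4 (-1.17). All 4 exceeded the intact pairs, and on day 7 Hk2 and Slc2a1 lay at or just below the intact wild-type values of 251.5 and 188.7, and 1111.8 and 1171.7. Ldha, the lactate enzyme, was nearly level at 2769.6 and 2404.3 (-0.20).

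Clock genes, which cycle with the hour of day, also differed. Nr1d1, a repressor of the clock, read 252.7 and 73.4 (-1.73), Arntl, an activator at its core, 142.7 and 48.4 (-1.49), Nfil3 78.8 and 25.8 (-1.49) and Cry1 135.7 and 57.6 (-1.19), all past the intact pairs. Per3 read 261.4 and 500.7 (0.93) and Dbp 1165.0 and 1514.3 (0.38), in the other direction. Of 16 clock genes, the 4 lower ones named first were the only ones 2-fold apart. The part of the hour of day in these or other differences was not tested.

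The calcineurin pathway, the target of Dscr-1, showed no 2-fold difference in any of 14 genes, where 5.27% of all genes had one. Rcan1 read 663.6 on day 5 and 579.7 on day 7 (-0.19), within the 0.50 seen between intact replicates, and its second probe set past the filter differed by 0.37. Apoe read 1124.2 and 928.8 (-0.27). Nfatc1, a transcription factor that calcineurin activates, read 46.4 and 67.7 (0.51). Cell cycle genes likewise had no 2-fold call in 37, although 20 of 22 mitotic genes were lower, with a median of -0.40 (-0.54 to -0.37 under the alternatives), against a shift of 0.60 in the same genes between the Dscr-1-/- replicates. Mki67, a marker of dividing cells, read 678.5 and 454.4 (-0.57). Corneal epithelium genes had none in 19. With 5.27% of all genes called, the lack of a call says little in lists as short as these.

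The other sutured pair, the arrays labelled Dscr-1 Tg on day 7 and Dscr-1-/- on day 5, differs in day and in labelled genotype, which cannot be told apart, and is shown side by side. Rcan1 does not bear out the first label: it read 548.3 on the array labelled Dscr-1 Tg, against 579.7 in wild type on day 7. On the array labelled Dscr-1-/- it read 479.1, against 663.6 in wild type on day 5 and 331.7 to 477.5 on the intact arrays labelled Dscr-1-/- or double null. Whether its probes lie in the deleted part or in the transgene is not in the labels, and probes outside would check nothing. The array labelled Dscr-1 Tg also stood apart in 18S signal (5386.8, against 3055.6 to 3211.2 on the other sutured arrays). In this pair 1314 genes (10.3%) differed by 2-fold, 320 higher on the array labelled Dscr-1 Tg (2.52%) and 994 lower (7.82%). Of the 416 genes higher on day 7 in wild type, 37 were 2-fold higher and 97 were 2-fold lower in that pair. Of the 254 lower genes, 34 were higher and 72 lower. Both day 7 arrays lay above both day 5 arrays in 150 of the 416, against 21.7% of all genes, and below them in 153 of the 254, against 19.4%. Since those genes were chosen for the wild-type arrays, part of that separation is fixed by the choice.

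The gene groups divided by this view. Immediate early genes kept their order: in 18 of 20, both day 7 arrays lay below both day 5 arrays. In the other pair 9 of the 20 were 2-fold lower and none higher, with a median of -0.75. Nr4a1 read 61.1 on the array labelled Dscr-1 Tg and 785.4 on that labelled Dscr-1-/-, whereas Fosb read 181.2 and 213.4. Nr4a2 read 181.8 and 895.0, Jun 1229.9 and 3141.7, and Ifrd1 442.2 and 1245.9. In 15 of 17 lens genes both day 7 arrays lay above both day 5 arrays, with Crygb at 152.5 and 0.3. Clock genes were separated in 11 of 16, 9 with the day 7 arrays lower and 2 with them higher. Among the lower ones, Arntl read 46.1 and 142.2 and Nfil3 23.3 and 73.2. Over all genes, 19.4% were separated with day 7 lower and 21.7% with day 7 higher. Serpinb3a, Hk2 and Casp1 also read lower on both day 7 arrays. Mmp9 was only slightly higher on the array labelled Dscr-1 Tg, at 83.4, than on that labelled Dscr-1-/-, at 76.2. These genes, like Crygb, Nr4a2, Fosb and Ifrd1, met a naming rule that required both day 7 arrays on one side of both day 5 arrays. Their order was thus set by the choice and is given as a description.

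Blood endothelial genes did the reverse. None of the 22 was separated by day, and 17 were 2-fold lower on the array labelled Dscr-1 Tg than on that labelled Dscr-1-/-, with a median of -1.31. All 9 pigment cell and iris genes were 2-fold lower there too, with a median of -2.63 and sums of 376.1 and 2952.4, the lowest and the highest of the 12 arrays, and their part in the endothelial difference was not tested. Cdh5 read 25.9 and 115.6, against 59.6 in wild type on day 7 and 23.9 on day 5. Postn read 240.6 and 1071.7, and Acta2 275.2 and 929.7, so that wild type on day 5 and the array labelled Dscr-1 Tg were low together and the other 2 arrays high together. Of 23 keratinisation genes, 9 were 2-fold higher on the array labelled Dscr-1 Tg than on that labelled Dscr-1-/- and 1 was lower, with Cnfn at 428.7 and 31.8. S100a9 read 3434.5 and 390.1 there, and Saa1 406.0 and 11.4. For these groups the order of the 4 sutured corneas did not follow the day. Of 23 macrophage genes, 13 were 2-fold lower on the array labelled Dscr-1 Tg than on that labelled Dscr-1-/- and none higher, with a median of -1.13. Of 16 interferon genes, 5 were 2-fold lower there and 1 higher, with a median of -0.37. In 6 of these 16, both day 7 arrays still lay above both day 5 arrays.

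**Figure D5:**
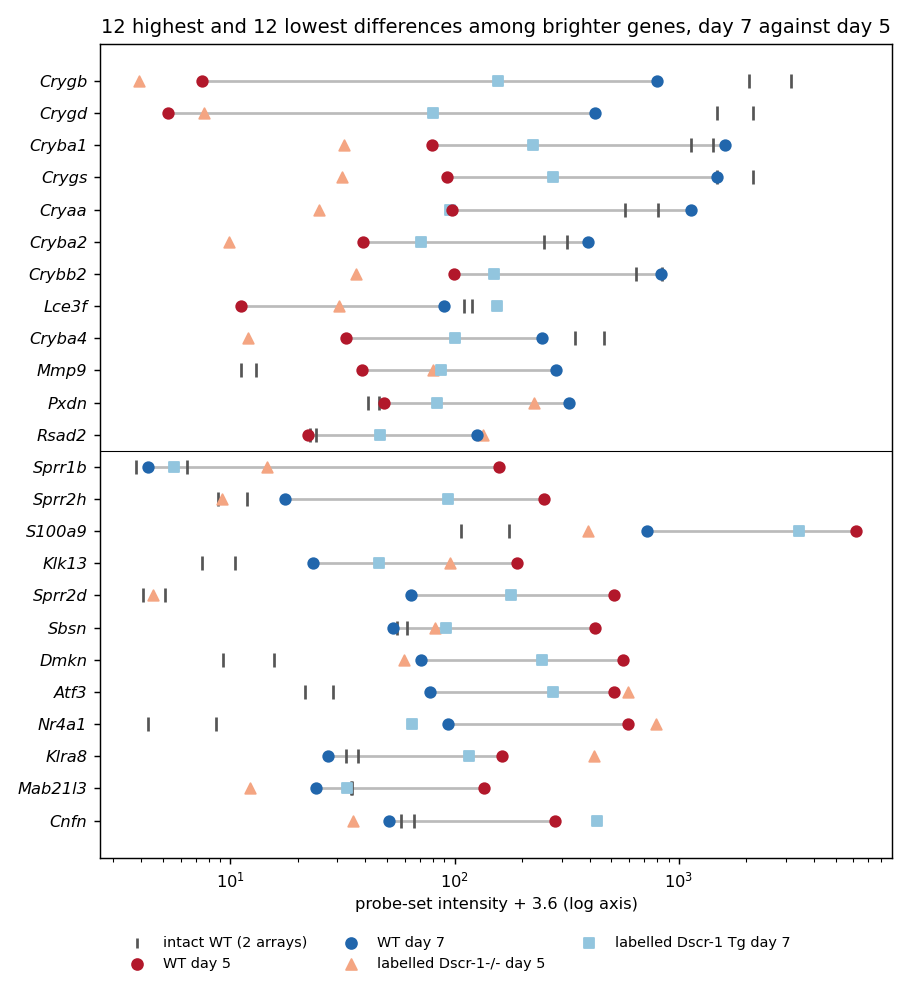
Intensity + 3.6 (horizontal, log axis) of the 12 genes with the highest and the 12 with the lowest log2 differences between day 7 and day 5 among the 9867 genes reaching the 60th percentile of brightness. Grey lines join the wild-type arrays of day 5 (dark red circles) and day 7 (dark blue circles), and lighter symbols give the arrays labelled Dscr-1-/- on day 5 and Dscr-1 Tg on day 7, with intact wild type as ticks. Crystallins stand high in intact cornea and on day 7, while all 12 lowest genes are 2-fold or more above intact on day 5, and on day 7 6 lie within 2-fold of it and 6 remain above.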

How the data were processed

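Total RNA of dissected whole corneas was labelled from 100 ng by the standard Affymetrix procedure, per the labels' protocols, and measured on 12 arrays of 45101 probe sets. The deposited values are linear probe-set intensity, already scaled by the authors: with the top and bottom 2% left out, every array averages about 100. No label names the software used. For arrays, their number limits the precision, and array medians lay between 15.6 and 21.1.

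Groups follow genotype, suturing and day as labelled. Of the probe sets, 34958 carry 1 gene symbol in the platform table, 932 several and 9211 none, and only the first were used. Of these, 204 have a symbol absent from the RefSeq table (GRCm38.p6). The brightest probe set stood for each gene, values were log2(intensity + 3.6), and genes whose mean log2 value reached the 40th percentile over probe sets were compared. A gene was called at a 2-fold difference. No p-value was computed, since each day has 1 array.

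Members, gene lists and rules were chosen with earlier results of these data known. Of 56 lists, 52 had at least 3 members past the filter. Named genes are, among 9867 genes reaching the 60th percentile, the 12 highest and 12 lowest differences, and the 10 highest and 10 lowest among 868 (456 higher, 412 lower) that exceeded all 4 intact pairs with both day 7 arrays on one side of both day 5 arrays. Each list described adds up to 6 members with the largest differences and those that define its role, and Rcan1 and Apoe were always named. Of 34 genes so named, 5 have several probe sets past the filter, and 1, Rcan1, has probe sets of opposite sign. The code that reads differences was checked on simulated arrays, built from each probe set's mean over the 12 arrays with random noise. Shifts of 1, 2, -1 and -2, given only to genes reaching the 60th percentile, came back as medians of 0.96, 1.92, -0.98 and -1.9. Each shifted day 7 value was made from its day 5 value, so this checks the code and not how far real arrays vary. Shifts of genes nearer background were not simulated. Promoter letters were matched in the RefSeq windows with exact letters. Alternatives were constants of 0.6 and 10.2 (the 5th and 40th percentiles), no filter or one at the 60th percentile, quantile normalization, median centring, loess with a span of 0.3, all probe sets of a gene, and other sets of intact pairs. Python 3.11.15 with numpy 2.4.6, pandas 2.3.3, statsmodels 0.14.6 and matplotlib 3.10.9 was used.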

Additional observations from a re-analysis of the deposited data

How the results depend on the processing

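No paired analysis was possible because each sutured group has 1 array and the comparison comes from no test. The 416 genes 2-fold higher on day 7 became 246 with the constant of 10.2, 196 with the filter at the 60th percentile, 891 with no filter and 743 when each of 22721 probe sets was counted by itself. The 254 lower genes became 157 with the stricter filter, 437 with each probe set by itself and 570 with no filter. Of genes also past all 4 intact pairs, the 288 higher ones became 184 with the constant of 10.2, 146 with the stricter filter, 190 with median centring, 542 with each probe set by itself and 566 with no filter, and the 168 lower ones became 292 with each probe set by itself and 344 with no filter. The filter and the probe-set setting change how many features are counted, and the cause of the other shifts was not tested. Over the alternatives for these 4 counts, 32 values stayed within 1.5 times and 14 did not. Of alternative log2 differences of named genes, 264 moved by less than the gene's standard deviation pooled over the intact pairs and 8 by more, and of list medians 387 and 24. No named difference or list median of 2-fold or more changed sign. Below that size, Rcan1 changed sign when its probe sets were averaged (0.09), and 13 of 52 list medians changed sign under at least 1 alternative, each 0.203 or less in size as deposited. For genes near background the size followed the constant: at 10.2, Crygb stood at 5.84, Crygd at 5.17, Lce3f at 2.43 and Sprr1b at -3.92.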

Other observations

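Several gene groups outside the comparisons above showed smaller differences between day 5 and day 7. Enzymes of cholesterol synthesis were lower in 15 of 17 genes, none by 2-fold, where 41.6% of all genes were lower, with a median of -0.47 (-0.61 to -0.39 under the alternatives) against at most 0.41 between intact replicates. The other sutured pair went the opposite way, with a median of 0.73 on the day 7 array labelled Dscr-1 Tg over the day 5 array labelled Dscr-1-/-. Idi1, an early isoprenoid enzyme, read 1589.6 and 896.7 (-0.82), within the 0.95 of an intact pair, and Cyp51, a sterol demethylase, 1077.0 and 616.7 (-0.80), just past its intact pairs (0.78). In the fatty acid list 1 of 13 was 2-fold lower: Scd1, the desaturase that makes oleate, at 910.3 and 424.1 (-1.10), against 0.23 at most between intact replicates. Cyp7b1, which hydroxylates oxysterols, read 130.7 and 45.1 (-1.46), against 19.2 and 14.5 in intact wild type, but 301.2 and 341.6 in the intact double null. Atf4, the transcription factor of the integrated stress response, read 1558.2 and 718.7 (-1.11).

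Among chemokines, those that attract neutrophils and those that attract monocytes and T cells differed in opposite directions in some members. Cxcl1 read 690.3 and 245.5 (-1.48) and Cxcl2 1473.1 and 532.7 (-1.46), while Ccl12 read 18.1 and 56.2 (1.46) and Ccl5 0.9, below the added constant, and 15.5 (2.09). Of these, Ccl5 alone exceeded all 4 intact pairs. The lists were not uniform. Of 10 CXC genes, 2 were 2-fold lower and none higher, with 8 lower and 2 higher at any size and a median of -0.54. Of 12 CC genes, 2 were 2-fold higher and 1 lower, with 9 higher and 3 lower at any size and a median of 0.17. That CC median fell to 0.03 after quantile normalization or median centring, with 7 higher and 5 lower. Pf4, a platelet and megakaryocyte chemokine, read 218.8 and 479.0 (1.12), whereas Ppbp, of the same origin, was bright and level at 1264.5 and 1399.7 (0.15). Mast cell Cpa3 read 11.7 and 0.6 (-1.86), near background on both days.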
